A study of Callithrix jacchus with 39 samples.

Results

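Of 23034 H3K4me3 regions merged over 8 tissues of Callithrix jacchus, the common marmoset, 1963 (8.52%) were overlapped by no H3K27ac peak in any of the 16 H3K27ac libraries of the same tissues. These never-acetylated regions are described here against the other 21071 H3K4me3 regions, which met H3K27ac in at least 1 library. In each tissue an H3K4me3 peak was kept if it overlapped a peak of the other replicate by at least 1 bp, and the kept peaks were then merged within and over tissues. The regions were thus chosen by the positions of peaks of both marks, and the absence of H3K27ac is a definition and not a result.

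The series used ChIP-seq, which sequences the DNA bound to a modified histone, on stomach, colon, liver, kidney, heart, spleen, pancreas and skeletal muscle. Both marks were read in 2 numbered replicates of a tissue, but for heart H3K4me3 only replicate 2 was analysed here, so heart peaks entered with no replicate filter. No treatment or genotype is named, and groups differ by tissue and antibody. The labels give no age, sex or number of animals, and do not say whether replicates came from different animals, so the spread below is between these samples and tissues. Each whole tissue mixes cell types, and no cell type marker could be checked because the peak lists name no genes. H3K4me3 lists held 16386 to 24424 peaks and H3K27ac lists 24590 to 51554. Read depth is unknown, so a region without a peak is one where none was called, not one shown to lack the mark.

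H3K4me3, trimethylation of lysine 4 of histone H3, is laid down by SET1 and MLL methyltransferases and marks promoters, above all those in CpG islands. H3K27ac is laid down by the acetyltransferases p300 and CBP at active promoters and enhancers. Promoters with H3K4me3 but no acetylation are known from silent CpG islands and, in embryonic stem cells, from promoters that also carry the Polycomb mark H3K27me3, which occupies the same lysine as H3K27ac. H3K27me3 was not among the 2 marks profiled. Positions are on calJac3, the build in the peak names, and no gene or sequence is given because no annotation or sequence of that build was used here.

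Never-acetylated regions were found mostly in few tissues. Of the 1963 regions 914 (46.6%) were reproducible in 1 tissue, 691 (35.2%) in 2 to 4 and 358 (18.2%) in 5 to 8. All 8 tissues carried H3K4me3 at 59 of them (3.01%), against 10438 (49.5%) of the regions with H3K27ac. Among the regions with H3K27ac 3862 (18.3%) were reproducible in 1 tissue. Read the other way, 19.1% of the 4776 regions of 1 tissue were never acetylated. That share was 18.9% at 2 tissues, 16.8% at 3, 14.97% at 4, 11.7% at 5, 8.30% at 6 and 5.25% at 7 tissues. It was 0.562% among the 10497 regions of all 8 tissues, so the step between 7 and 8 tissues was the largest in proportion.

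**Figure D1:**
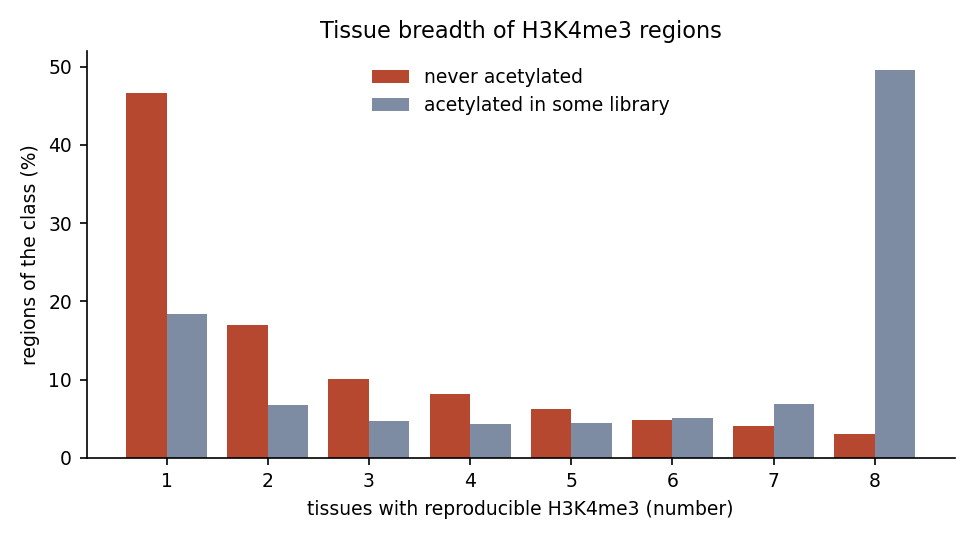
Share of regions (y axis, %) by the number of tissues with reproducible H3K4me3 (x axis), for never-acetylated regions (red) and regions with H3K27ac in some library (grey). Never-acetylated regions peak at 1 tissue (46.6%) and regions with H3K27ac at 8 tissues (49.5%).

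Taken tissue by tissue, the share found in that tissue alone was 15.05 ± 8.29% for never-acetylated regions and 2.92 ± 2.39% for regions with H3K27ac (SD, n = 8 tissues). It ran from 2.07% in spleen to 24.96% in colon for never-acetylated regions, and from 0.401% in skeletal muscle to 7.98% in liver for the others, so the ranges overlapped. The difference of 12.1 ± 7.77 percentage points was above 0 in each tissue. Breadth is read from the H3K4me3 positions that also entered the rule, so no p is given. It ranged from 0.285 points in spleen to 20.4 points in colon. Within strata of region length the difference was 9.39 points, above 0 in 6 of 8 tissues, with liver (-0.421) and spleen (-0.536) below 0.

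A region counted as found in 1 tissue often had a peak in a library of another tissue. Of the 914 never-acetylated regions of 1 tissue 650 (71.1%) were overlapped by a peak in some library of another tissue, against 52.0% of the 3862 regions of 1 tissue with H3K27ac. Counting any library, 264 never-acetylated regions (13.4%) had H3K4me3 in 1 tissue and 270 (13.8%) in all 8. Regions with H3K27ac were not counted in this way, so these counts have no background. A peak in all 15 H3K4me3 libraries was present at 60 (3.06%) of the never-acetylated regions, against 49.7% of regions with H3K27ac.

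The tissues contributed unequally. Stomach held 1147 never-acetylated regions, kidney 864, heart 715, liver 657, colon 611, pancreas 419, skeletal muscle 387 and spleen 239. As a share of the tissue's merged H3K4me3 regions this was 6.61% in stomach and 5.31% in kidney. It was 4.62% in heart, 3.82% in colon, 3.70% in liver, 3.08% in pancreas, 2.90% in skeletal muscle and 1.80% in spleen. Across the 8 tissues the share correlated with the number of H3K4me3 regions (Pearson r = 0.743, Spearman rho = 0.738) and with the mean length of the H3K27ac lists (Pearson r = -0.334, Spearman rho = -0.524). Both are descriptions over tissues that share regions, and the part of list length in the order of tissues was not tested.

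Regions seen in 1 tissue showed wider contrasts. Stomach alone had 258 never-acetylated regions, heart 169, kidney 167, colon 155, liver 95, pancreas 35, skeletal muscle 30 and spleen 5. Of all H3K4me3 regions found in stomach alone 39.8% were never acetylated, and 35.3% of the 85 in skeletal muscle alone. In liver alone the share was 6.38% of 1490 regions, and in spleen alone 1.95% of 256. Colon (17.3%), pancreas (17.9%), heart (27.6%) and kidney (28.2%) lay between. Liver also had the longest H3K27ac lists, with a mean of 48936 peaks, and its replicate 2 list alone met 349 regions that no other H3K27ac library met.

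Stomach and kidney shared the most never-acetylated regions, and were also the pair with the highest overlap among regions with H3K27ac. The 599 in common were 52.2% of the stomach set and 69.3% of the kidney set, a Jaccard index (regions in both divided by regions in either) of 0.424, against 0.825 for regions with H3K27ac. Liver with stomach (0.384), kidney with liver (0.370) and heart with kidney (0.359) followed, and colon with skeletal muscle was lowest at 0.188. Colon and stomach had 0.310, rank 11 of 28 pairs, and made up the most regions of exactly 2 tissues in both classes, 72 of 333 (21.6%) against 287 of 1433 (20.03%). Kidney and stomach made up 60 (18.02%) of the never-acetylated ones, against 57 (3.98%), a contrast that was not tested. The mean over the 28 pairs was 0.283 ± 0.062 for never-acetylated regions and 0.765 ± 0.032 for regions with H3K27ac (SD over pairs, which share tissues). Stomach took part in 217 (65.2%) of the 333 never-acetylated regions of 2 tissues, against 602 (42.0%) of those with H3K27ac, and spleen in 11 (3.30%), against 142 (9.91%).

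Of the 81 never-acetylated regions reproducible in 7 tissues, the missing tissue was colon in 27, spleen in 26, skeletal muscle in 13, heart in 7, pancreas in 7 and liver in 1. It was kidney or stomach in 0. Among the 1461 regions of 7 tissues with H3K27ac, by comparison, skeletal muscle (26.1%) and pancreas (25.1%) were missing most often, and colon in 16.3% against 33.3% of the never-acetylated ones. Spleen was missing in 22.5% against 32.1%, and heart in 5.54% against 8.64%. Kidney (2.87%), liver (1.16%) and stomach (0.411%) were seldom missing there too. These contrasts were not tested.

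**Figure D2:**
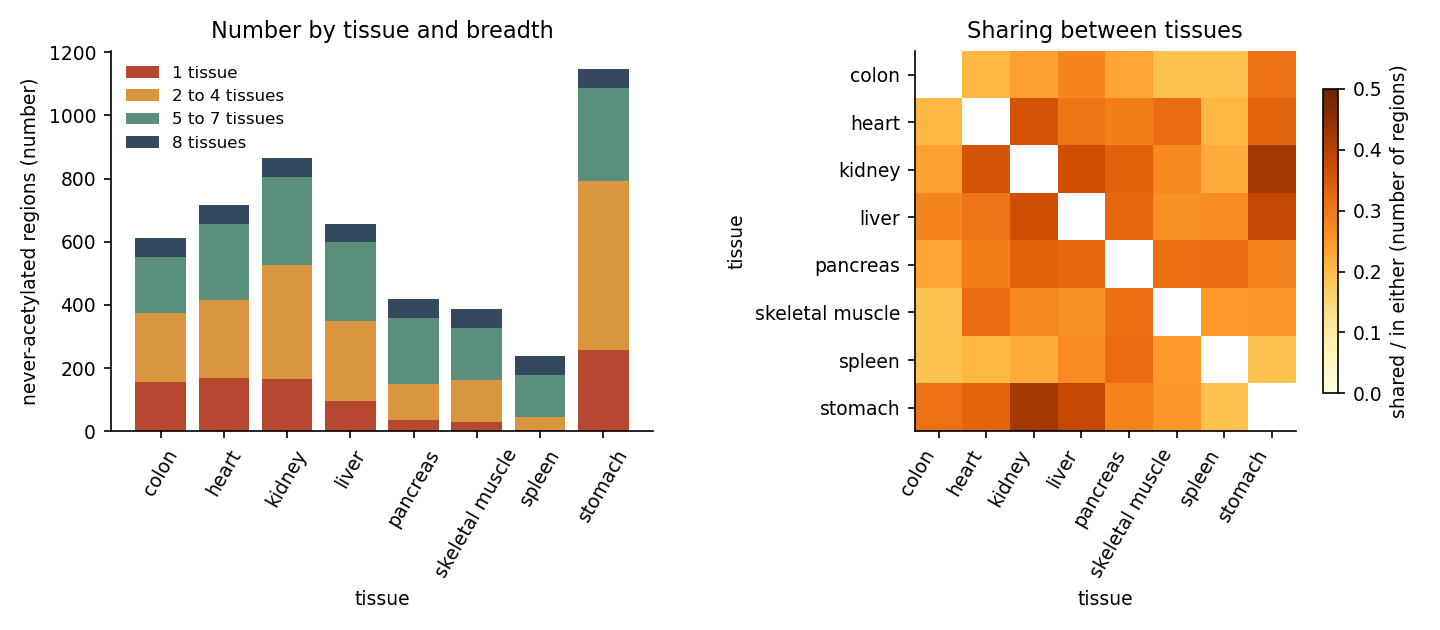
Left, number of never-acetylated regions per tissue (y axis) by the number of tissues in which the region was reproducible (colours). Right, Jaccard index of never-acetylated regions for each pair of tissues (colour scale; the diagonal is blank). Stomach has the tallest bar (1147) and spleen the shortest (239), and kidney with stomach is the darkest pair (0.424).

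Never-acetylated regions were short. Their median length was 711 bp, with quartiles of 517 and 1020 bp and a maximum of 3498 bp, against a median of 1442 bp for regions with H3K27ac. Regions under 500 bp made up 23.0% of them, against 5.02%, and 56 (2.85%) reached 2 kb, against 27.4%. They covered 1.64 Mb, or 4.66% of the merged H3K4me3 length. Measured on each tissue's own regions the medians were 715 ± 163 bp and 1150 ± 180.0 bp (SD, n = 8). The heart values, from 1 library, were 408 and 757 bp, and the other tissues ranged from 669 to 991 bp and from 1044 to 1293 bp. Length is tied to the rule, since a longer region has more bases that can meet a peak, and it was not tested.

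Length and breadth were therefore read together. At 3 to 7 tissues the median lengths of both classes were close: 888 and 932 bp at 3 tissues, 1004 and 1024 bp at 4, 1067 and 1121 bp at 5, 1246 and 1186 bp at 6, and 1357 and 1367 bp at 7. At 8 tissues they were 1434 and 1856 bp, and at 1 tissue 530 and 704 bp. Among regions of at least 1000 and under 1500 bp 7.06% of those in 1 tissue were never acetylated, 16.3% in 2 to 4, 8.35% in 5 to 7 and 0.858% in 8. Among regions under 500 bp the share was 30.1% in 1 tissue and 29.7% in 2 to 4. The low share at 8 tissues was present in each length class with regions of 500 bp or more, at no more than 2.46%.

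**Figure D3:**
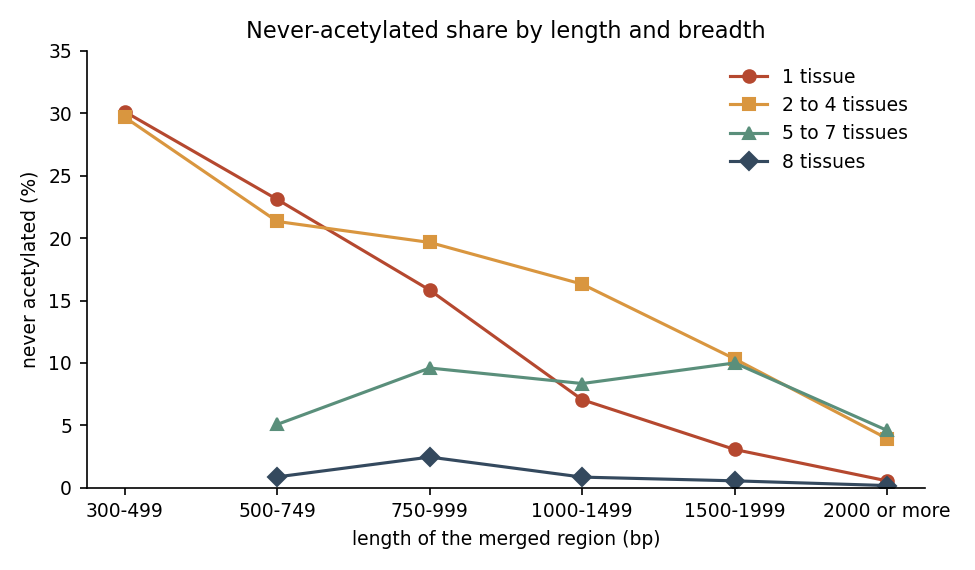
Never-acetylated share of merged H3K4me3 regions (y axis, %) by length class (x axis, bp), drawn for 4 classes of tissue breadth where a class held at least 20 regions. The share in 1 tissue drops with length, and regions of 8 tissues stay at or under 2.46% in the classes drawn.

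Never-acetylated regions carried weak H3K4me3. Strength was taken as the percentile of the authors' fold enrichment within each list, where 0 is the weakest and 100 the strongest peak. The H3K4me3 fold enrichment was not used by the rule. Over tissues the median percentile was 26.4 for peaks in never-acetylated regions and 58.0 for reproducible peaks in regions with H3K27ac. It ran from 19.1 in heart to 34.7 in skeletal muscle for never-acetylated regions and from 51.9 in heart to 61.8 in skeletal muscle for the others, with no overlap. The difference was -31.6 ± 2.02 points, negative in each of the 8 tissues (SD). A two-sided exact permutation test that flips signs over the 8 tissues gave p = 0.00781, the smallest possible, and an adjusted p of 0.00977. A region of several tissues enters several of these values, so the tissues are not independent and the p is too small to that extent. Among the 15 libraries the never-acetylated median lay between 18.5 (skeletal muscle, replicate 1) and 50.8 (skeletal muscle, replicate 2), and was below that of the regions with H3K27ac in every library. These 2 libraries also had unlike shares of reproducible peaks, 96.1% in replicate 1 and 59.1% in replicate 2, and the part of this in their medians was not tested. Peaks above percentile 90 of their list made up 0.051 ± 0.198% of never-acetylated peaks, against 12.4 ± 2.02% (SD, n = 15 libraries). Below percentile 25 lay 48.2 ± 15.7%, against 15.7 ± 5.94%.

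**Figure D4:**
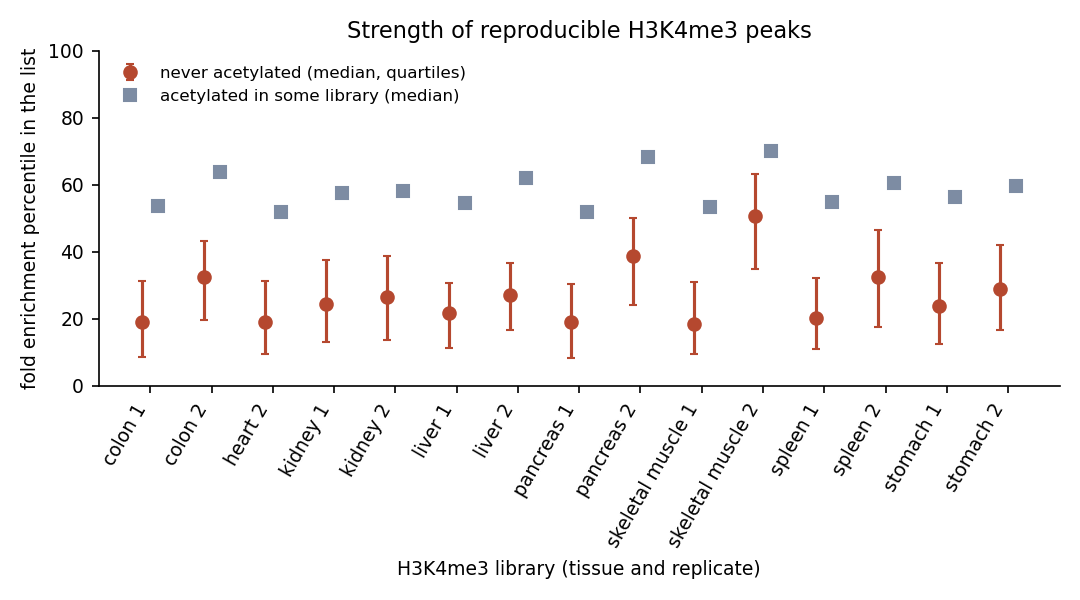
Percentile of fold enrichment within each list (y axis) for reproducible H3K4me3 peaks in each of the 15 libraries (x axis). Red points with bars are medians and quartiles in never-acetylated regions, and grey squares are medians in regions with H3K27ac. The red point lies below the grey square in 15 of 15 libraries.

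This difference went with length and breadth. Within strata of peak length it was -9.81 ± 1.51 points, still negative in each tissue, with an exact permutation p of 0.00781. Among regions of 1 tissue alone, where no region enters more than 1 tissue, it was -4.95 ± 7.12 points, with 17.1 against 22.1 (SD over 8 tissues). This did not pass: the exact permutation p was 0.0938 and the adjusted p 0.117. In that comparison pancreas (-17.8) and liver (-12.3) differed most, and skeletal muscle lay above 0 (3.97). Few never-acetylated regions entered from pancreas (35), skeletal muscle (30) and spleen (5). Averaged per region over libraries, the median percentile of never-acetylated regions was 16.6 in 1 tissue, 22.5 in 2 to 4, 32.0 in 5 to 7 and 42.7 in 8. For regions with H3K27ac it was 23.9, 28.2, 38.3 and 71.7 in the same classes. The gap was thus widest at 8 tissues, where 14 of 59 never-acetylated regions averaged a percentile of 50 or more, against 8933 of 10438. Of all 1963 regions 32 (1.63%) did so, against 10210 (48.5%) of the regions with H3K27ac. An average of 75 or more was reached by 0, against 4612 (21.9%).

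Among never-acetylated regions themselves, those of 1 tissue were weaker than those of several. Their median percentile was 17.1, against 28.2 for regions of 2 or more tissues, a difference of -11.1 ± 3.94 points that was negative in each of the 8 tissues (SD). Tissue medians ran from 13.05 in heart to 21.7 in spleen for the regions of 1 tissue, and from 22.1 in heart to 36.0 in skeletal muscle for those of several. Spleen had 5 such regions of 1 tissue, skeletal muscle 30 and pancreas 35. The groups of 1 and of several tissues are set by breadth, which is read from H3K4me3 positions that also entered the rule. A region of several tissues also enters several of these values, so no p is given. Within strata of length the difference was -4.03 points.

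Regions with few H3K27ac libraries were much like the never-acetylated ones in length and strength, but not graded in breadth. Regions met by 1 H3K27ac library numbered 1142, with a median length of 744 bp, 45.2% in 1 tissue and a median percentile of 25.4. The never-acetylated regions had 711 bp, 46.6% and 22.1. Regions met by 2 libraries numbered 1714 and were longer (956 bp) and stronger (29.9), but more often in 1 tissue (63.9%). Regions met by all 16 libraries numbered 7463, with 1931 bp, 0.630% in 1 tissue and a median percentile of 76.1. Just inside the rule, 27 never-acetylated regions had an H3K27ac peak within 100 bp, with a median length of 622 bp and a median percentile of 14.5. Just outside it, 38 regions were covered by H3K27ac over 1 to 100 bp, with medians of 448 bp and 11.2. The H3K27ac peaks that alone met a region were mostly in the weaker part of their lists, with median percentiles between 26.0 and 45.3 in the 16 libraries.

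The number of never-acetylated regions moved with the H3K27ac peaks admitted. With the 20000 strongest peaks of each H3K27ac list it was 3637, with reproducible H3K27ac peaks alone 4063, and with replicate 1 or replicate 2 libraries alone 2950 and 2569. Without the H3K27ac lists of liver, with its H3K4me3 lists kept, 939 further regions joined, to 2902. Without those of spleen 105 joined. Leaving out the shorter H3K4me3 list of skeletal muscle (replicate 1) gave 3796, since replicate 2 then entered unfiltered. Without the heart H3K4me3 list the number was 1796, and 169 of the 1963 had come from heart alone.

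Never-acetylated regions lay farther from H3K4me3 regions with H3K27ac than those regions lay from each other. The median gap to the nearest H3K4me3 region with H3K27ac was 45.8 ± 7.24 kb, against 18.8 ± 1.299 kb between regions with H3K27ac (SD, n = 8 tissues). The tissue medians ran from 33.3 kb in colon to 53.7 kb in heart for never-acetylated regions and from 16.3 kb in liver to 20.2 kb in skeletal muscle for the others, with no overlap. On the log2 scale the difference was 1.27 ± 0.18 and positive in each tissue. The neighbours are classed by the same H3K27ac peaks as the regions themselves, and 1 such peak can meet several regions close together, so no p is given. It was 2.12 within strata of length, and 0.68 when regions were classed with the 20000 strongest H3K27ac peaks of each list. Among regions of 1 tissue alone it was 1.92 ± 1.29 (SD over 8 tissues), from 0.12 in liver to 4.46 in heart. Within 2 kb of a region with H3K27ac lay 9.86 ± 3.10% of never-acetylated regions, against 25.7 ± 1.39%. More than 100 kb away lay 28.8 ± 4.05%, against 13.4 ± 0.630% (SD, n = 8 tissues).

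The nearest H3K27ac peak of any library lay at a median of 11.9 kb from a never-acetylated region. It lay within 1 kb at 305 regions (15.5%) and beyond 10 kb at 1041 (53.0%), of which 187 were over 100 kb away. The regions within 1 kb were in 1 tissue in 66.9% of cases, and those beyond 10 kb in 39.6%. A further 54 regions lay on sequences without any H3K27ac peak. The gap is tied to the rule and was not tested.

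Over the chromosomes the never-acetylated share ran from 5.28% on chromosome 22 (72 of 1363 regions) to 11.3% on chromosome 8 (90 of 798). Chromosomes 13 (10.97%), 6 (10.9%) and 3 (10.3%) were also above 10%, and chromosome X was at 8.76% (60 of 685). The share was lower where H3K4me3 regions were denser, with Pearson r = -0.687 and Spearman rho = -0.570 over 23 chromosomes. Without the 2 chromosomes farthest from the median density, 22 and 5, r was -0.459. The number of H3K4me3 regions is also the denominator of the share. Never-acetylated regions per Mb rose with the same density (Pearson r = 0.929, Spearman rho = 0.889). These are descriptions, in which all chromosomes share the same libraries. Within 5 Mb of the ends of assembled chromosomes lay 10.5% of never-acetylated regions and 11.96% of the others.

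Outside the assembled chromosomes lay 103 never-acetylated regions (5.25%), against 4.83% of the others, on 99 of the 673 unplaced or unassigned sequences with an H3K4me3 region. Per tissue the mean shares were 3.76% and 4.21%, a difference of -0.441 ± 0.555 points (SD), negative in 7 of 8 tissues. The share is read from positions the rule used, so no p is given. The sign of the difference turned in 8 of 31 cases when each library was left out. It also turned with H3K27ac of replicate 1 libraries alone (1.74 points) and with reproducible H3K27ac peaks alone (3.09 points), so no direction is given.

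**Figure D5:**
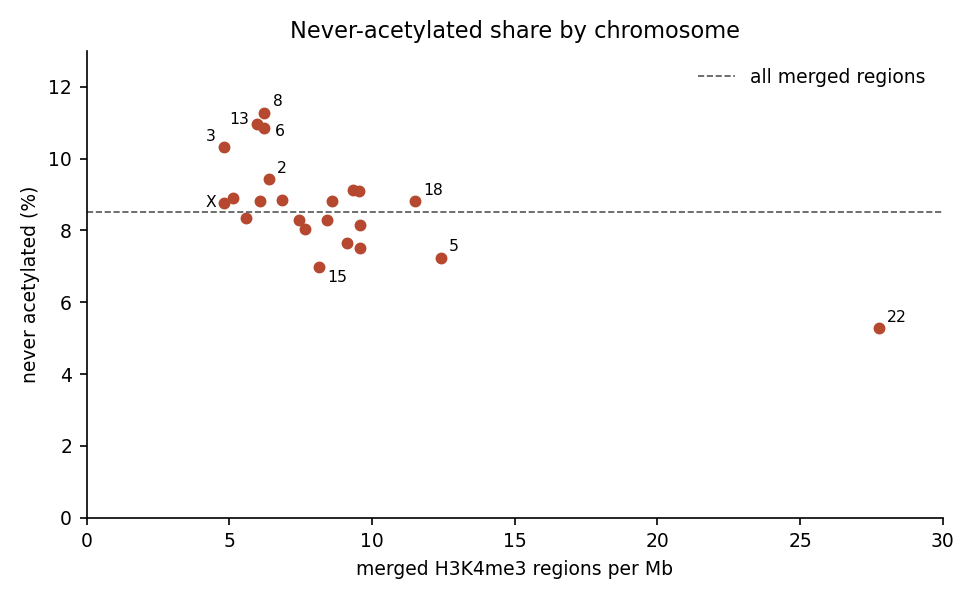
Never-acetylated share of merged H3K4me3 regions (y axis, %) against the density of merged H3K4me3 regions (x axis, regions per Mb up to the last peak) for chromosomes 1 to 22 and X, some of them labelled. The dashed line is the share of all regions (8.52%), and chromosome 22 stands at the far right and lowest (5.28%).

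Some never-acetylated regions were neighbours of each other. The nearest other H3K4me3 region was itself never acetylated for 531 of them (27.9%), against 6.09% of regions with H3K27ac, which was not tested. Joined where gaps were at most 20 kb, 446 (22.7%) fell into groups of 2 or more, and 34 groups held 3 or more. Regions with H3K27ac were not joined in this way, so these counts have no background. Because 1 H3K27ac peak can meet several regions close together, the class of a neighbour is also tied to the rule. The group with most members lay on chromosome 6, 46431011 to 46451180, and held 5 regions over 20.2 kb in colon, heart, kidney, liver, spleen and stomach, of 1 to 6 tissues each. It enclosed 1 H3K4me3 region with H3K27ac, which 1 library met. The next 4 groups held 4 regions each and no H3K27ac. On chromosome 14, 103053645 to 103058804, regions of 1 or 2 tissues (heart, kidney and liver) stood 89.8 kb from the nearest H3K27ac peak. On chromosome 7, 85327227 to 85336806, they spanned 9.58 kb and involved all 8 tissues, 42.1 kb from H3K27ac. Chromosome 6 held both remaining groups. That at 57499138 to 57512574 had regions of 1 to 8 tissues and lay 57.6 kb from H3K27ac, and that at 44087488 to 44102485 was seen in colon, liver and stomach, 1.44 kb from H3K27ac.

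Of the regions with H3K4me3 in all 8 tissues, the strongest lay on chromosome 8, 112031426 to 112032680. It was 1255 bp long, had a peak in 15 of 15 libraries and lay 85.2 kb from the nearest H3K27ac peak. Its authors' fold enrichment ran from 11.5 (heart) over a median of 15.2 to 25.2 (colon, replicate 2), and its percentile from 58.0 (liver, replicate 2) over 70.3 to 89.0. It was thus above the middle of every H3K4me3 list without any H3K27ac call. The second, on chromosome 10, 83015456 to 83016889, had percentiles from 39.1 over a median of 66.3 to 91.2 and lay 20.8 kb from H3K27ac. Both following regions were on chromosome 9 and were near acetylation. The region at 58178174 to 58178955 had a median percentile of 64.9, with an H3K27ac peak 0.596 kb away and 6 of 16 libraries with one within 5 kb. The region at 59868824 to 59870299 had a median percentile of 59.9 and H3K27ac of kidney replicate 2 at 0.871 kb, the only library within 5 kb.

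The remaining 6 of the 10 strongest such regions had no H3K27ac within 5 kb. They lay on chromosome 13, 14485622 to 14487036 (median percentile 57.9), on chromosome 4, 127703497 to 127705780 (58.0) and 78459182 to 78460613 (57.1), and on chromosome 19, 11817460 to 11819182 (61.2). The other two were on the unassembled sequences chrUn_GL286240, 25738 to 27298 (54.6), and chr16_GL285726_random, 34607 to 36400 (57.5). No H3K27ac peak was called on chr16_GL285726_random in any library. Each of these 6 had a peak in 15 of 15 libraries, and the lowest percentile of any of them in a library was 14.9.

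The longest never-acetylated regions were broad in tissues but not strong. The longest, 3498 bp on chromosome 8, 32289530 to 32293027, was reproducible in 7 tissues, with a peak in 14 of 15 libraries and percentiles from 8.16 over a median of 32.0 to 72.6. It lacked a peak in spleen replicate 1 alone. On chromosome 13, 57236897 to 57240378, a region of 3482 bp was reproducible in all tissues but colon, at a median percentile of 40.6. On chromosome 3, the regions at 81122486 to 81125957 (3472 bp) and 60144016 to 60147425 (3410 bp) were reproducible in all 8 tissues, at median percentiles of 34.6 and 43.3. The first of these lay 7.17 kb from H3K27ac, the second 363 kb from it and 1100 kb from the next H3K4me3 region with H3K27ac. The fifth, 3266 bp on chromosome 10, 66201851 to 66205116, was reproducible in all tissues but pancreas and lay 763 kb from H3K27ac. Its percentile was 73.9 in skeletal muscle replicate 2 and 0.736 in colon replicate 1, the widest range of the 5.

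Among regions of 1 tissue, the strongest in pancreas lay on chromosome 14, 81756056 to 81757147. Its fold enrichment was 9.23 and 15.2 in the pancreas libraries, at percentiles of 50.4 and 63.2, and it also had a peak in 1 library each of liver, skeletal muscle and stomach. H3K27ac of pancreas itself was called 2.14 kb away. The strongest kidney region, on chromosome X, 122455353 to 122456165, likewise lay 1.42 kb from H3K27ac of kidney, with 8 of 16 libraries within 5 kb. Its percentiles were 32.7 and 61.1 in the kidney libraries, and it also had a peak in skeletal muscle replicate 2, at 54.3. The strongest spleen region, on chromosome 5, 60634263 to 60634939, lay 1.98 kb from H3K27ac of spleen and had a peak in the 2 spleen libraries and no other. In these 3 the nearest H3K27ac peak was from the same tissue.

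The strongest regions of the remaining tissues lay farther from acetylation. That of colon was at chromosome 6, 80793260 to 80793879 (mean percentile 49.0, gap 77.5 kb), that of liver at chromosome 16, 22352961 to 22353536 (42.7, 45.2 kb), and that of stomach at chromosome 9, 32580980 to 32581877 (47.8, 77.9 kb). That of skeletal muscle was at chromosome 17, 25227983 to 25228580 (37.9, 70.8 kb). Each of these also had peaks in libraries of other tissues. In all, those of colon and liver had a peak in 5 libraries, that of stomach in 6 and that of skeletal muscle in 4. That of heart, on the sequence chrUn_GL289951, 463335 to 463961, was seen in its 1 library alone, at a percentile of 49.3, with H3K27ac of heart 17.9 kb away.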

How the data were processed

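Peak lists in narrowPeak form were deposited by the authors, 1 per ChIP library, so replicates were not pooled. MACS2 2.1.1.20160309, bedtools 2.26, Bowtie 1.1.2 and SAMtools 1.3.1 are listed, with no roles, per the submitters' processing notes. The sources do not say what the 8 input samples served for, and these were not analysed here. The deposited fold enrichment is a ratio from the authors' peak caller and was used only as a rank within 1 list. The deposited −log10 p and −log10 q values served as an alternative rank and threshold. The deposited integer score was not used. The lists held no peak shorter than 300 bp and no −log10 q below 3.04.

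Scripts ran under Python 3.11.15 with scipy 1.17.1, numpy 2.4.6 and, for figures, matplotlib 3.10.9. Overlapping or touching intervals were merged. Each difference was computed per tissue, replicates averaged, and tested over 8 tissues by flipping signs in all 256 patterns, whose smallest p is 0.00781. Benjamini-Hochberg adjustment covered 5 tests. No p is printed for breadth, the gap between regions, the share off the assembled chromosomes or the strength of regions of 1 tissue against several. These draw on positions the rule used. They were still counted in the adjustment, so the adjusted p values printed for strength depend on them. The code was tested on simulated data. Strata were 10 classes of length. Named regions were the 10 strongest of the most tissues, the strongest of each tissue alone, the 5 longest and the 5 groups with most members. Regions, tests and rules were chosen with earlier results of these data known. Replicate numbers were not taken to pair samples.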

Additional observations from a re-analysis of the deposited data

Results flagged for a closer look

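In 14 sets of 8 tissue values, 1 tissue stood far from the others once, which chance gives in about 1 in 20 sets. The strength difference between never-acetylated regions and regions with H3K27ac was -27.1 percentile points in skeletal muscle, against -31.1 points in the next tissue, pancreas. Its libraries gave -34.9 points in replicate 1 and -19.4 points in replicate 2, whose lists held 16850 and 24424 peaks. The part of this unequal list length was not tested.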

How the results depend on the processing

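The strength difference over all regions kept its direction and side of the threshold in 31 of 31 cases when each library was left out. It did so in 12 of 13 other alternatives. The other differences draw on positions the rule used, so only their values and signs are given. Of 40 recomputed region counts 36 stayed within 1.5 times 1963. The number of regions was 3637 with the 20000 strongest H3K27ac peaks, 4063 with reproducible H3K27ac peaks alone, and 2950 with replicate 1 H3K27ac libraries alone. It ranged from 1796 to 3796 when each library was left out, the upper value without skeletal muscle H3K4me3 replicate 1, which removes a filter. Among regions of 1 tissue alone, chosen after seeing the data, the strength difference was -4.95 points (exact permutation test, adjusted p = 0.117). This setting is 1 of the 13 other alternatives of the strength difference. Over these the adjusted p of that test ran from 0.00781 to 0.117, the highest being among regions of 1 tissue alone. The share off the assembled chromosomes was the unstable result. It was 3.09 points with reproducible H3K27ac peaks and 1.74 with replicate 1 libraries. It was -0.149 with replicate 2 libraries, -0.240 with H3K27ac within 1 kb counted and -0.929 among regions of 1 tissue alone. Leaving out each library moved it between -0.553 and 0.648, and the sign turned without kidney H3K27ac replicate 2 and without H3K4me3 of liver or pancreas (either replicate), skeletal muscle, spleen or stomach (replicate 1). It kept its sign in the other cases. The cause was not tested. On assembled chromosomes alone it has no value. Values were also computed per replicate and averaged within each of the 7 tissues with 2 H3K4me3 libraries, with no replicate effect fitted. Strength then differed by -31.5 points, the share in 1 tissue by 10.8 points and the log2 gap by 1.24. The share off assembled chromosomes differed by -0.526 points and strength of regions of 1 tissue by -11.4 points, and no sign changed. Read depth is unknown and limits how far absence of H3K27ac can be read.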
